A study of Mus musculus with 4 samples.

Results

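Flt3, Kit and Cd34 encode surface proteins by which blood progenitors are recognised and sorted. They were taken as 3 of the 19938 genes with a probe set naming a single gene, 1 probe set for each, from Affymetrix whole-transcript arrays of mouse cells. RNA was measured in 3 groups of C57BL/6 cells on 4 arrays. Tcf1 cells (2 arrays, labelled as biological replicates) were grown from lymphoid-primed multipotent progenitors (LMPPs) given a Tcf1-VEX retrovirus, which carries the T lineage transcription factor Tcf1. They were kept on OP9, a bone marrow stromal line that presents no Notch ligand, and sorted on day 10 as Thy1+CD25+ cells without Mac1 or Gr1. Control cells (1 array) passed the same gate on the same day but came from LMPPs given the VEX vector alone and grown on OP9 stroma expressing the Notch ligand DL4. LMPPs (1 array, pooled and labelled as wild type) were sorted from bone marrow as lineage-negative, Sca-positive, Kit-positive cells with high Flt3. They were then held for 48 hours in the transduction medium, which contained stem cell factor and Flt3 ligand, before RNA was taken. The later cultures received IL7 and Flt3 ligand, and stem cell factor is not listed for them. Vector and stroma both differ between Tcf1 cells and control cells, and their effects cannot be told apart. Kit and Flt3 were themselves part of the LMPP gate, so their levels in LMPPs may partly reflect the sort. The gate read surface protein, whereas the arrays measured RNA taken 48 hours later. Tcf7, the gene that encodes Tcf1, was not analysed here, so the labels were not checked against it.

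Flt3 and Kit are receptor tyrosine kinases of the same structural class, in which binding of the ligand pairs 2 receptor chains and switches on their kinases. Flt3 binds Flt3 ligand and is known for the growth of lymphoid-primed progenitors and dendritic cells, while Kit binds stem cell factor and acts in stem cells, mast cells and the earliest T cell precursors in the thymus. Cd34 is a sialomucin, a heavily glycosylated surface protein of progenitors and endothelium. In the mouse thymus, Kit is kept through the first stages of T cell development and then lost, whereas Flt3 is lost early.

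Flt3 and Cd34 shared a pattern that Kit did not, and the regions around their annotated starts are shown for that reason, from 250 bases before to 50 bases after each start in RefSeq on build GRCm38.p6. Flt3 lies on the minus strand (chr5:147400440-147400739), Cd34 on the plus strand (chr1:194938571-194938870) and Kit on the plus strand (chr5:75574737-75575036). Where the table gives 2 starts for Kit, 4 bases apart, the first is shown. Capitals mark matches, on either strand, to CTTTGA (TCF/LEF factors), TGGGAA (RBPJ, the Notch effector), GATAA (GATA factors), TGNGGT (RUNX factors), GAGGAA (PU.1) and TGACAG (MEIS factors).
Flt3: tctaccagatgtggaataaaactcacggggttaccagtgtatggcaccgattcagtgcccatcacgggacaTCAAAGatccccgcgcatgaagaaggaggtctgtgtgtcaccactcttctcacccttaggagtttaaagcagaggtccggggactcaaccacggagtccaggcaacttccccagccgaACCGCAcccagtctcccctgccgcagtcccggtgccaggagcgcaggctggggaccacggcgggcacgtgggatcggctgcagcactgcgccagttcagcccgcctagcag
Cd34: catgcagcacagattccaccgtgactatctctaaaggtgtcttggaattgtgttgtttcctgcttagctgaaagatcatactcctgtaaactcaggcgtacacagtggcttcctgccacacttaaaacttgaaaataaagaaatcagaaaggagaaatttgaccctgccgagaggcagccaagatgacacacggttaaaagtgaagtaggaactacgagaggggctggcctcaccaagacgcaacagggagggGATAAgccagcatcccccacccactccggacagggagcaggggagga
Kit: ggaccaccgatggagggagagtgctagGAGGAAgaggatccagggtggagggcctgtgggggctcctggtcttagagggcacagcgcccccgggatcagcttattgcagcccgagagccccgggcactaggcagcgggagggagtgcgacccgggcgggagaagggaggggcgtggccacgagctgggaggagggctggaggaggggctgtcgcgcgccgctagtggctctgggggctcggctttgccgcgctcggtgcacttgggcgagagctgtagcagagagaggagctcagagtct
The Flt3 region held 1 match each to the TCF/LEF and RUNX letters, at -179 and -61 from the start, the Cd34 region 1 GATA match at 4, and the Kit region 1 PU.1 match at -223. Among the 32851 regions of this length in the table, 16.0% held the TCF/LEF letters, 45.8% the RUNX letters, 25.4% the GATA letters and 28.3% the PU.1 letters. The RBPJ and MEIS letters, held by 25.6% and 19.2% of all regions, were in none of these 3 windows. E-box letters (CANNTG, not in capitals), in 72.3% of all regions, occurred in the Flt3 and Kit windows and not in that of Cd34. No motif of the 7 was thus common to the Flt3 and Cd34 windows. The regions also differed in base composition, with 61% G and C for Flt3, 50% for Cd34 and 69% for Kit, against a median of 52.7% over all regions.

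Tcf1 cells had Flt3 and Cd34 within 1.89-fold and 1.1-fold of LMPPs, while control cells had a Flt3 signal below the array median and a much lower Cd34 signal. Kit had a higher signal in both Thy1+CD25+ populations than in LMPPs. Flt3 read 10.97 and 11.03 in the Tcf1 arrays, 6.75 in the control array and 11.91 in the LMPP array, all as log2 RMA signal. Its order was therefore LMPPs, then Tcf1 cells, then control cells. With 1 array each for control cells and LMPPs, the spread within those groups is unknown. Cd34 read 12.76 and 12.86 in the Tcf1 arrays, 8.91 in the control array and 12.67 in the LMPP array. Here the Tcf1 arrays lay just above the LMPP array, and the control array stood far below both. Kit read 11.17 and 11.27 in the Tcf1 arrays, 11.39 in the control array and 9.68 in the LMPP array, so that the LMPP array was the low one. In bulk samples of this kind, fewer cells expressing a gene and less RNA per cell cannot be told apart.

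**Figure D1:**
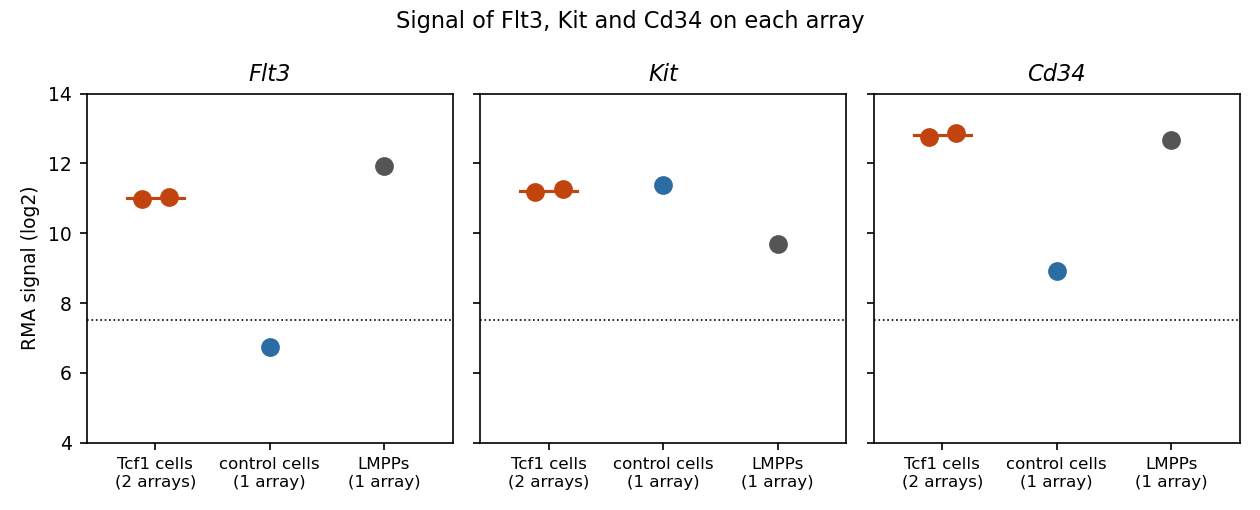
Signal of Flt3, Kit and Cd34 (log2 RMA value) in Tcf1 cells, control cells and LMPPs, 1 point per array, with a short line at the mean of the 2 Tcf1 arrays and a dotted line at the mean of the array medians. Flt3 is at 6.75 and Cd34 at 8.91 in control cells, far below the other arrays, while Kit is lowest in LMPPs at 9.68.

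The 2 Tcf1 arrays differed by 0.06 for Flt3, 0.10 for Kit and 0.09 for Cd34, so the replicates were close for all 3 genes. In control cells the Flt3 probe set ranked at the 36.9 percentile of genes on its array, below the array median of 7.49. No detection call was used here, so whether any Flt3 transcript was present in control cells was not settled by this value. Cd34 in control cells still ranked at the 68.8 percentile. Kit in LMPPs, the cells gated as Kit-positive, ranked at the 79.8 percentile. In Tcf1 cells all 3 genes ranked at or above the 94.2 percentile on each array. These ranks depend on how strongly each probe set hybridises and do not order the 3 transcripts by abundance.

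The comparison of Tcf1 cells with control cells asks how T lineage cells obtained with Tcf1 and without Notch ligand differ from those obtained with the ligand. Flt3 and Cd34 were both higher in Tcf1 cells, and Kit did not pass. Differences were tested with limma over all 19938 genes, and a gene passed at a Benjamini-Hochberg adjusted p under 0.05. Flt3 averaged 11.00 ± 0.04 in Tcf1 cells (SD, n = 2) and 6.75 in control cells (n = 1), a difference of 4.24 on the log2 scale (SE 0.16, adjusted p = 0.000167), or 18.9-fold. This fold is one of array signal: the control value was not shown to lie above background, so the ratio of transcripts may be larger and has no upper limit here. Cd34 averaged 12.81 ± 0.07 in Tcf1 cells (SD, n = 2) and 8.91 in control cells (n = 1), a difference of 3.90 (SE 0.16, adjusted p = 0.000167), or 14.9-fold with an interval from 11.4-fold to 19.5-fold. Among all genes, 5 were raised further than Flt3 and 15 further than Cd34. Kit averaged 11.22 ± 0.07 in Tcf1 cells (SD, n = 2) and 11.39 in control cells (n = 1), a difference of -0.17 (SE 0.16, adjusted p = 0.805). The 95% interval for Kit, from -0.56 to 0.21, leaves room for a level up to 1.48-fold lower or 1.16-fold higher in Tcf1 cells. Thus 2 of the 3 genes passed, both higher, where 4.38% of all genes passed in either direction (1.90% higher and 2.49% lower).

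Tcf1 cells were set against LMPPs to ask how far the progenitor programme was left behind. Flt3 fell modestly, Kit rose, and Cd34 did not pass. Flt3 averaged 11.00 in Tcf1 cells and 11.91 in LMPPs, a difference of -0.91 (SE 0.16, adjusted p = 0.0339, limma), or 1.89-fold lower. Kit averaged 11.22 in Tcf1 cells and 9.68 in LMPPs, a difference of 1.54 (SE 0.16, adjusted p = 0.00472, limma), or 2.9-fold higher. Both Tcf1 arrays showed these directions, with Flt3 differences of -0.94 and -0.89 and Kit differences of 1.48 and 1.59. Cd34 differed by 0.14 (95% interval -0.25 to 0.53, adjusted p = 0.856, limma), which bounds any rise at 1.44-fold and any fall at 1.19-fold. So 2 of the 3 genes passed, in opposite directions, where 3.06% of all genes passed (1.75% higher and 1.31% lower). The fall of Flt3 was the smaller of these changes, and 678 genes differed by more in absolute terms. Tcf1 cells differ from LMPPs in time in culture, stroma, cytokines, gate and retrovirus, and these cannot be told apart.

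Control cells against LMPPs, 1 array against 1, allowed no test, and only sizes are given. Flt3 read 6.75 in control cells and 11.91 in LMPPs, a difference of -5.16 or 35.7-fold lower in signal, and no other gene of the 19938 fell further in signal. Here too the control value was not shown to lie above background, and neither the fold nor this rank measures the fall in transcript. High Flt3 was also part of the LMPP gate, so its rank among all genes may partly reflect the sort. Cd34 read 8.91 in control cells and 12.67 in LMPPs, a difference of -3.75 or 13.5-fold lower, and 15 genes fell further. Kit read 11.39 in control cells and 9.68 in LMPPs, a difference of 1.71 or 3.27-fold higher. All 3 genes were thus at least 2-fold apart, where 5.53% of all genes were (3.17% higher and 2.36% lower). This comparison shares the LMPP array with the preceding one and the control array with that before it. Side by side, Flt3 differed from LMPPs by -0.91 in Tcf1 cells and by -5.16 in control cells, Cd34 by 0.14 and -3.75, and Kit by 1.54 and 1.71.

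**Figure D2:**
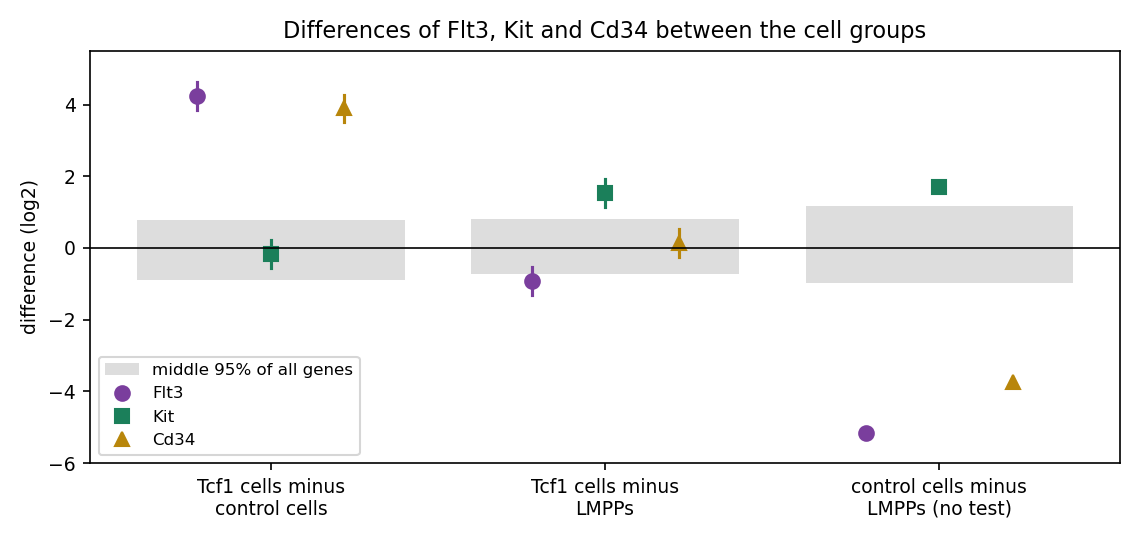
Differences of Flt3, Kit and Cd34 (log2) in 3 comparisons, with 95% intervals from limma where a test was made and grey bands for the middle 95% of all genes. Flt3 and Cd34 lie at 4.24 and 3.90 between Tcf1 cells and control cells, where Kit lies at -0.17.

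The spread behind these tests came from the Tcf1 replicates alone, with 1 residual degree of freedom, and the lone control and LMPP arrays were assumed to vary alike. With no moderation of the spread between genes, or over all 35399 probe sets, none of the 4 differences kept an adjusted p under 0.05 (0.127 to 0.795), while their sizes were the same.

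The whole series can be stated briefly. Median signals over genes were between 7.47 and 7.59 on the 4 arrays, and Tcf1 replicate 1 had a narrower interquartile range (2.91) than the other arrays (3.13 to 3.22). Between Tcf1 cells and LMPPs 57.2% of passing genes were higher, or 41.7% when the array medians were set equal, and the directions of Flt3 and Kit were as above in both. The gate genes matched the labels: Il2ra, which encodes CD25, read 12.91 and 12.99 in Tcf1 cells, 13.64 in control cells and 6.88 in LMPPs, and Thy1 read 12.38 and 12.53, 12.98 and 8.13 in the same order. Among early T cell genes, the CD3 chain gene Cd3g read 6.48 and 6.64 in Tcf1 cells, 13.00 in control cells and 5.62 in LMPPs. Flt3 and Cd34 were therefore high in the Thy1+CD25+ cells with low Cd3g and low in those with high Cd3g.

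The ligands of the receptors were looked at first among related genes. Of the 2 measured, Kitl, which encodes stem cell factor, read 4.97 and 5.10 in Tcf1 cells, 4.72 in control cells and 4.85 in LMPPs. Flt3l, the ligand of Flt3, read 8.96 and 9.08 in Tcf1 cells, 9.36 in control cells and 8.46 in LMPPs. Neither passed in either comparison. Kitl lay below the 25th percentile of genes on every array (6.12 to 6.21), so a change in it could be missed. For Flt3l no shift in the sorted cells was detected beside the large difference of Flt3. Stromal cells, which can supply these ligands, were not themselves measured.

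Structural relatives of the members followed no common direction. Csf1r, the receptor for macrophage colony-stimulating factor and of the same class as Flt3 and Kit, read 9.15 and 9.54 in Tcf1 cells, 7.53 in control cells and 9.19 in LMPPs. It was higher in Tcf1 cells than in control cells by 1.82 (SE 0.20, adjusted p = 0.00473, limma). Pdgfrb, a receptor for platelet-derived growth factor, was lower in Tcf1 cells than in control cells by -1.63 (adjusted p = 0.00823, limma), and Pdgfra did not pass (0.12). Podxl, podocalyxin, a sialomucin of the Cd34 family, read 8.96 and 9.42 in Tcf1 cells, 10.13 in control cells and 7.66 in LMPPs. It rose by 1.53 against LMPPs (adjusted p = 0.016, limma) and differed by -0.94 from control cells without passing, whereas Cd34 itself was higher than in control cells by 3.90. Of 6 relatives measured, 1 was higher and 1 lower than in control cells, and 1 was higher than in LMPPs, with 1 more lower than in LMPPs after median centring or quantile normalization.

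Genes acting below the receptors mostly did not pass. The same held for all genes, of which 3.06% passed against LMPPs and 4.38% against control cells. Of 22 measured adaptors, kinases and STAT factors, 1 was higher and none lower in Tcf1 cells than in LMPPs, with a median difference of -0.02 against 0.00 over all genes. Quantile normalization turned that median to 0.09 with 3 higher, and median centring gave 2 higher and 1 lower. The riser was Gab2, an adaptor that couples Kit to the PI3 kinase route, at 1.24 (SE 0.17, adjusted p = 0.0124, limma), with 10.59 and 10.74 in Tcf1 cells and 9.43 in LMPPs. Against control cells 1 was lower, namely Plcg1, a phospholipase also used by the T cell receptor, at -1.57, and the median was -0.21 against 0.02 over all genes. Of 19 genes that restrain these receptors, 4 rose and 1 fell against LMPPs, with a median of -0.07. Sla2 (2.24), an adaptor that lowers receptor signals, and the cytokine signalling inhibitors Socs2 (1.93), Socs3 (1.45) and Socs1 (1.15) were the risers. Dusp6, a phosphatase of the ERK kinases that is itself induced by their activity, fell by 2.37 (SE 0.16, adjusted p = 0.000883, limma). Dusp6 read 8.41 and 8.46 in Tcf1 cells, 9.77 in control cells and 10.81 in LMPPs, so that it was lowest in the Tcf1 arrays. It was also lower in Tcf1 cells than in control cells by -1.34, as was Cbl, a ubiquitin ligase that removes active Kit and Flt3 from the surface, by -0.95 (adjusted p = 0.0223, limma). These 2 were the only ones of the 19 to pass against control cells, and the median was -0.24. Median centring gave 4 lower.

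Some transcription regulators of progenitors had the pattern of Flt3 and Cd34, as did some, but not all, of the myeloid markers described further on. Of 21 measured, 6 were higher and 1 lower in Tcf1 cells than in control cells, although the median difference was -0.11 against 0.02 over all genes. Hoxa9, a homeobox factor of progenitors that promotes Flt3 expression in mice, read 10.78 and 10.74 in Tcf1 cells, 7.27 in control cells and 10.23 in LMPPs, a difference of 3.49 from control cells (SE 0.16, adjusted p = 0.000219, limma). Meis1, its cofactor, read 10.66 and 10.87 in Tcf1 cells, 7.48 in control cells and 10.16 in LMPPs, a difference of 3.29 from control cells (adjusted p = 0.000324, limma). Both thus stayed near the LMPP level in Tcf1 cells and were low in control cells.

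Spi1, which encodes PU.1, a factor of myeloid and early lymphoid cells, read 11.48 and 11.61 in Tcf1 cells, 9.54 in control cells and 11.74 in LMPPs, and was higher than in control cells by 2.01. Mef2c (2.15), Lmo2 (1.05) and Bcl11a (0.95), regulators of lymphoid and stem cell progenitors, were higher than in control cells too. Unlike Cd34, these 3 also fell against LMPPs, with differences of -1.87, -2.10 and -1.47. Mef2c, for example, read 9.72 and 9.70 in Tcf1 cells, 7.56 in control cells and 11.58 in LMPPs. Gfi1, a repressor used in lymphoid and myeloid cells, was the 1 lower than in control cells (-1.12). Against LMPPs, 4 of the 21 fell and none rose. The remaining faller was Gata2 (-1.08), a transcription factor of stem cells known to activate Kit. After median centring 2 rose and 6 fell, and after quantile normalization 2 rose and 5 fell. Kit itself rose against LMPPs. The gene list and these genes were reported on with earlier results of these data known.

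**Figure D3:**
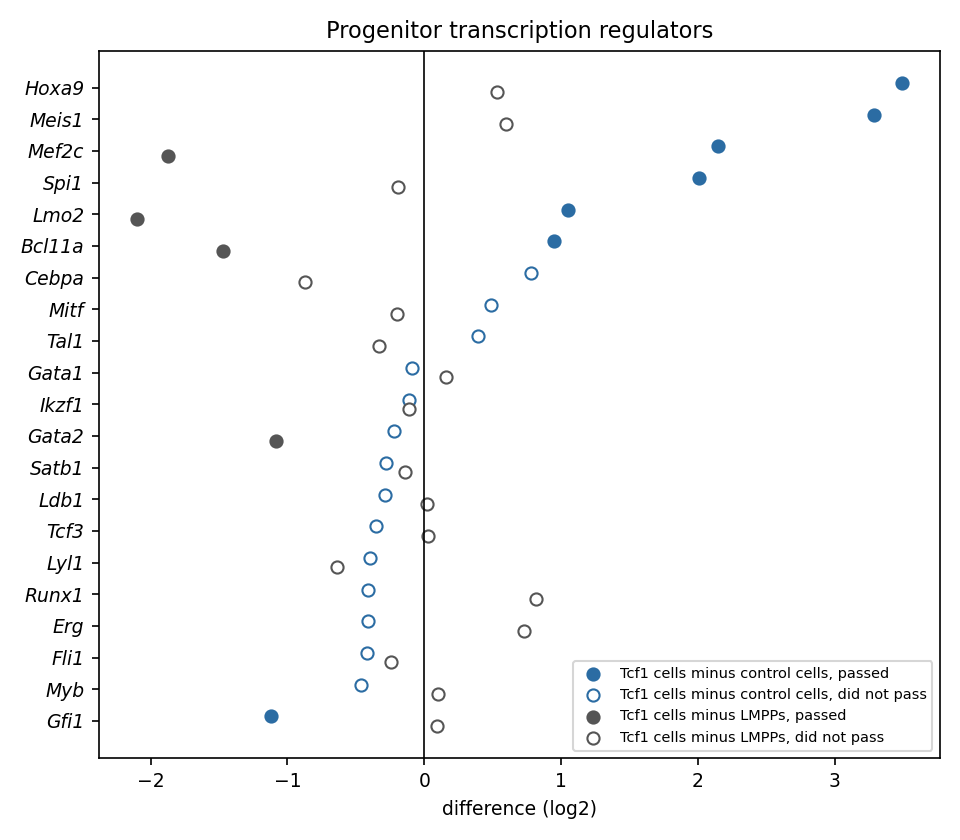
Differences (log2) of 21 progenitor transcription regulators between Tcf1 cells and control cells and between Tcf1 cells and LMPPs, with filled points for genes that passed. Hoxa9 (3.49) and Meis1 (3.29) lie furthest to the right against control cells and stay at 0.53 and 0.60 against LMPPs.

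Other progenitor surface genes did not follow Flt3 and Cd34 as a group. Of 13 measured, 2 rose and 3 fell against LMPPs (median -0.03), and 1 was higher and 1 lower than in control cells (median -0.13). After median centring 2 were higher and 3 lower than in control cells. Cd44, an adhesion receptor, read 9.39 and 9.51 in Tcf1 cells, 7.90 in control cells and 10.32 in LMPPs. It had the order of Flt3 on a smaller scale, higher than in control cells by 1.55 (adjusted p = 0.00396, limma) and lower than in LMPPs by -0.87. Eng, endoglin, a coreceptor of the TGF-beta family, fell by 1.75 against LMPPs, with 7.96 and 8.15 in Tcf1 cells, 8.33 in control cells and 9.80 in LMPPs. Cd93, a lectin-like surface protein of progenitors, fell by 1.06. Slamf1, a marker of stem cells and lymphocytes (2.25), and Il7r, a receptor chain of lymphoid cells (2.95), rose against LMPPs, as Kit did. Cd48, a lymphocyte and progenitor surface protein, was lower than in control cells by -0.78 (adjusted p = 0.0488, limma).

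The genes with the most similar profile were found by the root mean square difference of centred log2 values over the 4 arrays. For Flt3 these were Ms4a3 (0.345), a membrane protein of myeloid progenitors, Mpeg1 (0.375), a pore-forming protein of macrophages, Cd74 (0.433), the chaperone of class II MHC chains, Tfec (0.477), a transcription factor of macrophages, and Cd34 itself (0.53). Ms4a3, the closest, read 10.13 and 9.85 in Tcf1 cells, 6.28 in control cells and 10.53 in LMPPs. For Cd34 they were Tfec (0.13), Igsf6 (0.277), Hoxa9 (0.284), Ms4a3 (0.318) and Wfdc17 (0.321), and Flt3 came 14th at 0.53. Tfec read 10.40 and 10.21 in Tcf1 cells, 6.25 in control cells and 10.22 in LMPPs, which is the shape of Cd34 within 0.13 on average.

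For Kit they were Ppt1 (0.0559), a lysosomal thioesterase, Fut8 (0.0733), a fucosyltransferase, Abcg1 (0.0831), a sterol transporter, Socs3 (0.0832) and Snora33 (0.0838), a small nucleolar RNA. Ppt1 read 12.55 and 12.66 in Tcf1 cells, 12.90 in control cells and 11.15 in LMPPs. Kit was far from both other members, at 2.48 from Flt3 and 2.06 from Cd34. The distances for Kit are not comparable with those for Flt3 and Cd34, whose signal ranged more widely over the arrays. The likeness was measured over 4 arrays of 3 groups and has no test.

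**Figure D4:**
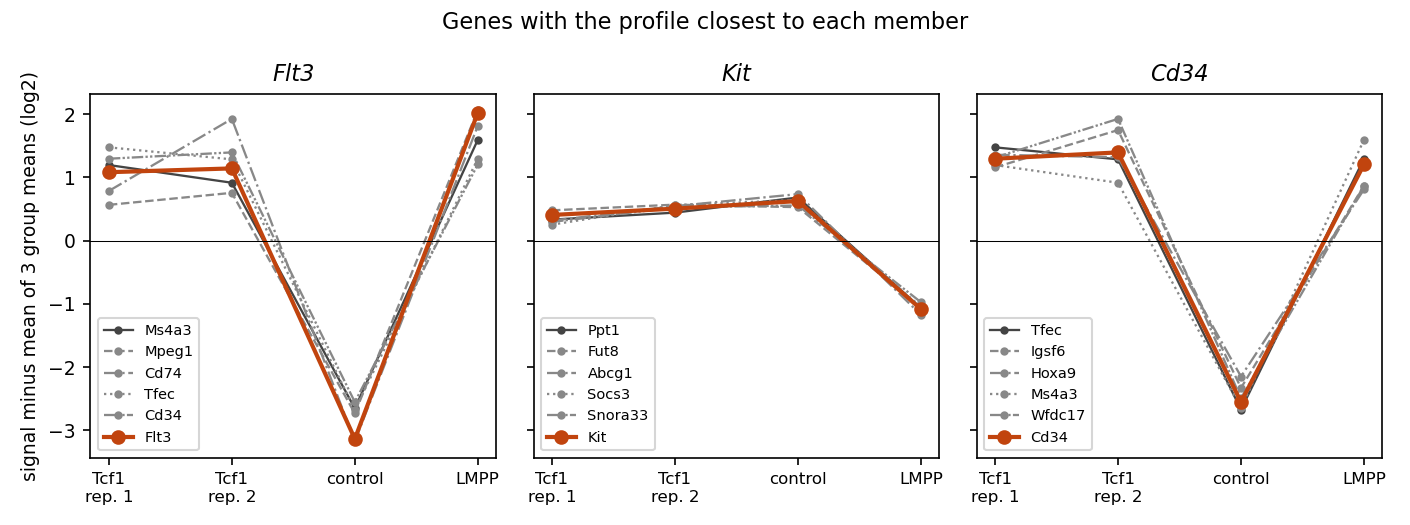
Log2 signal on each array minus the mean of the 3 group means, for Flt3, Kit and Cd34 (thick line) and the 5 genes with the closest profile to each (thin lines). The Flt3 and Cd34 panels share a drop in the control array, while the Kit panel has its low point in LMPPs, where Kit read 9.68.

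No gene next to the members on the chromosome passed in the direction of its member. Over all genes, 1.90% were higher than in control cells, and 1.75% were higher and 1.31% lower than in LMPPs. Among so few neighbours, a lack of passing genes therefore cannot decide whether neighbours change with the members. The nearest protein-coding genes on each side, 2 a side, were taken in their order in the RefSeq table of GRCm38.p6. Flt3 is flanked by Urad and Pan3 and, beyond them, by Cdx2 and Flt1, and none of the 4 passed in either comparison. Pan3, a subunit of an RNA deadenylase, differed by -0.26 from control cells, against 4.24 for Flt3. Kit lies between Pdgfra and Kdr, which encode related receptors, and neither these nor Gsx2 and Srd5a3 passed. Pdgfra differed by 0.18 and Kdr by -0.09 from LMPPs, against 1.54 for Kit. These 2 read only 5.99 to 6.62, near the 25th percentile of genes (6.12 to 6.21), and Cdx2, Gsx2, Camk1g and Plxna2 were also near it. In such dim genes a change could be missed. Next to Cd34, Cd46, a complement regulator, was lower in Tcf1 cells than in control cells by -0.94 (adjusted p = 0.048, limma), opposite in direction to Cd34, while Plxna2, Camk1g and Cr1l did not pass.

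Markers of other cells that carry these receptors were read beside the members. Of 11 myeloid markers, 6 were higher in Tcf1 cells than in control cells and none was lower, with a median difference of 1.60 against 0.02 over all genes. Adgre1 (4.76), a macrophage receptor, Lyz2 (4.09), lysozyme, Mpo (2.12), myeloperoxidase, and Csf1r (1.82) had the largest differences. The summed linear signal of the 11 was 11413 and 12959 in Tcf1 cells, 2246 in control cells and 11949 in LMPPs. It was lowest in control cells, as Flt3 and Cd34 were, although the sort removed Mac1 and Gr1. The near-equal sums in Tcf1 cells and LMPPs were made up differently. In LMPPs the highest of the 11 were Mpo (12.08) and Elane (11.77). Lyz2 read 11.59 and 12.01 in Tcf1 cells and 9.66 in LMPPs, and Adgre1 read 11.10 and 11.43 in Tcf1 cells and 6.89 in LMPPs. Itgam, which encodes Mac1, read 7.44 and 7.70 in Tcf1 cells, 7.03 in control cells and 8.25 in LMPPs and did not pass. Against LMPPs 2 of the 11 rose (Adgre1 and Lyz2) and 4 fell (Ngp, Elane, S100a8 and S100a9). The part of these markers in the Flt3 and Cd34 results was not tested.

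Dendritic cells also carry Flt3. Of 11 dendritic markers, the MHC class II genes H2-Aa (4.06) and H2-Ab1 (3.54) were higher in Tcf1 cells than in control cells and the other 9 did not pass, while 3 of the 11 passed after median centring or quantile normalization. H2-Aa read 9.24 and 10.61 in the 2 Tcf1 arrays, 5.86 in the control array and 10.18 in the LMPP array, so the replicates lay much further apart than for Flt3. The summed linear signal of the list was 2744 and 4687 in Tcf1 cells, 1586 in control cells and 4081 in LMPPs. In Tcf1 cells and LMPPs much of it came from H2-Aa and H2-Ab1, which read 5.86 and 6.20 in control cells. The order of this sum thus rests largely on these class II genes. Clec9a was below the 25th percentile of genes on every array, and Zbtb46 (0.26), Batf3 (0.28) and Xcr1 (0.08), which mark conventional dendritic cells, did not pass against control cells. The part of dendritic cells in the Flt3 result was not tested.

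Mast cells carry Kit. Of 9 mast cell and basophil markers, Mcpt4, Cma1, Tpsab1, Ms4a2 and Fcer1a were below the 25th percentile of genes on every array. Cpa3, a carboxypeptidase found in mast cells and in early progenitors, read 11.60 and 11.87 in Tcf1 cells, 12.58 in control cells and 9.37 in LMPPs, and rose against LMPPs by 2.36. Mcpt8, a basophil protease, fell by 2.31. The other 7 of the 9 did not pass against LMPPs, among them the high-affinity IgE receptor genes Fcer1a (-0.04) and Ms4a2 (-0.53). Both are among the dim genes named above, in which a change could be missed. The summed signal of the list was 3835 and 4481 in Tcf1 cells, 7101 in control cells and 1908 in LMPPs, and in the Thy1+CD25+ cells Cpa3 made up most of it, so the sum has the order of Cpa3 by construction. The part of mast cells in the Kit result was not tested.

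Stroma and endothelium can carry Cd34. None of 9 stromal markers was higher in Tcf1 cells in either comparison, and Pdgfrb was lower than in control cells. Dcn, Lum, Lepr and Adipoq were below the 25th percentile of genes on every array, and the summed stromal signal was 1286 and 1388 in Tcf1 cells, 1866 in control cells and 1358 in LMPPs. None of 9 endothelial markers passed against control cells, and Egfl7 fell by 1.22 against LMPPs. The summed endothelial signal was 2345 and 2375 in Tcf1 cells, 3037 in control cells and 2810 in LMPPs. In control cells much of each sum came from 1 gene, Pdgfrb (9.85) in the stromal list and Pecam1 (11.04) in the endothelial list. The part of stroma and endothelium in the Cd34 result was not tested.

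T lineage and innate lymphoid genes were read in the same way. Of 12 early T cell genes, 7 were lower in Tcf1 cells than in control cells and none was higher (median -1.61), while 7 were higher than in LMPPs and none was lower (median 1.34). Il2ra and Thy1 are among these 7 and were the genes of the sort gate, and with Il7r they carry most of the summed signal in Tcf1 cells. After median centring 1 of the 12 was higher and 9 were lower than in control cells, and 1 was lower than in LMPPs. Their summed signal was 20147 and 22440 in Tcf1 cells, 41281 in control cells and 2129 in LMPPs, highest in the array where Flt3 and Cd34 were lowest. Of 6 genes of type 2 innate lymphoid cells, which also carry Thy1 and CD25, Il17rb and Gata3 were higher than in LMPPs by 1.94 and 2.54 and lower than in control cells by -2.01 and -1.30. After median centring 4 of the 6 were higher than in LMPPs, and after quantile normalization 3. Their summed signal was 3834 and 5084 in Tcf1 cells, 7614 in control cells and 3406 in LMPPs. Most of it came from Gata3 (11.42) and Il17rb (11.41) in control cells and from Id2 (11.39) in LMPPs. The order of this sum thus rests on few genes, and Gata3 is also 1 of the 12 early T cell genes. The part of these cells in the results was not tested.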

How the data were processed

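The authors deposited log2 signals per probe set, 1 column per array, made with RMA and Partek 6.5, per the submitters' processing notes. Their parameters and the genome build are not given in the sources used here, and base 2 is assumed because RMA uses it and values span 3.44 to 14.45. Of 35399 probe sets, 21789 named a single gene in the platform annotation. Where a gene had several, the one with the highest mean was used, which left 19938 genes. Flt3, Kit and Cd34 had 1 probe set each.

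Group means of the 4 arrays were fitted with limma 3.58.1 (R 4.3.3) with empirical Bayes moderation (1 residual and 5.78 prior degrees of freedom, prior SD 0.141), and p-values were adjusted over all genes by Benjamini-Hochberg. The labels do not say whether the 2 Tcf1 arrays came from separate animals, so p-values measure the spread between these arrays. No filter on dim genes was applied. The members, gene lists and motifs were chosen with earlier results of these data known. Named list genes are the up to 4 largest passing differences per list, and others were chosen after their values were seen. Alternatives covered normalization, filters, probe sets, the prior and leaving out each Tcf1 array. Some genes of the lists are not analysed here.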

Additional observations from a re-analysis of the deposited data

How the results depend on the processing

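Sizes and directions of the 3 genes changed little: over 2 other normalizations, 2 filters on dim genes, averaged probe sets and a prior with an intensity trend, the 4 passing differences kept their direction and passed, and Kit against control cells and Cd34 against LMPPs did not pass. Without Tcf1 replicate 1 or 2, values with no test, Flt3 differed by 4.27 and 4.21 from control cells and by -0.89 and -0.94 from LMPPs. The 4 differences lost their call under 2 settings. Over all 35399 probe sets, Flt3 (4.24) and Cd34 (3.90) against control cells had adjusted p = 0.127 each, and against LMPPs Kit (1.54) had 0.214 and Flt3 (-0.91) had 0.33 in limma. With no moderation, a setting chosen after seeing the data, the same differences of 4.24 and 3.90 had adjusted p = 0.795 and those of 1.54 and -0.91 had 0.752. The cause was not tested.

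Counts over all genes moved more. Against LMPPs, 610 genes passed, and 1456 after median centring, 1196 and 1189 over genes above the 25th percentile and above the median, 936 with an intensity trend, 12 with no moderation and 0 over all probe sets (3317 at an unadjusted p under 0.05). Against control cells, 874 passed, and 1646 after median centring, 1437 over genes above the 25th percentile, 12 with no moderation and 0 over all probe sets (3702 at an unadjusted p under 0.05). No paired analysis was possible because only the Tcf1 arrays carry replicate numbers. The number of arrays limits the precision, and only ranks within an array speak to background.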
